A study of Mus musculus with 12 samples.

Results

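The family of miR-192, miR-194 and miR-215 was followed in 12 livers of adult male mice, in a design that crossed maternal and own diet. Every listed arm of miR-192, miR-194 and miR-215 was taken by name, which gave 5 of the 386 miRNA rows: miR-192-5p, miR-192-3p, miR-194-5p, miR-194-2-3p and miR-215-5p. The 3' arms miR-194-1-3p and miR-215-3p had no row and were not analysed here.

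All mice were wild-type C57BL/6 males, taken in a fasted state at postnatal day 84, or 12 weeks. The groups were OO (obesogenic diet for mother and son), CO (obesogenic diet for the son only), OC (obesogenic diet for the mother only) and CC (control diet for both), with 3 libraries each. The control diet was RM1 chow, and the obesogenic diet was an energy-rich chow given with sweetened condensed milk. The 35 dams kept their diet until weaning, litter size was set to 6 pups at postnatal day 3, and weaning onto either diet took place at day 21. In bulk liver RNA, fewer cells of a type and less RNA per cell cannot be told apart. The labels name no mother or litter for a son, so p-values measure only the spread between these libraries. OC replicate 2 and OO replicate 3 have a title stem in common, of unstated meaning, and whether those sons were related cannot be told from the labels. Sample titles open with one prefix for all sons of control mothers and another for all sons of obesogenic mothers, so what the prefix stands for and maternal diet cannot be told apart.

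miRNAs are cut as short duplexes from hairpin precursors, and usually 1 arm of the duplex is kept while the other, the passenger, is lost. miR-192 and miR-215 carry the same seed, the bases that pair with target mRNAs, and so share many predicted targets, whereas miR-194 carries another seed. The family is abundant in liver, gut and kidney epithelium, where hepatocyte nuclear factors drive its hairpins, and in human cells p53 induces it. miR-192 is also known from TGF-beta signalling in the kidney.

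The mature sequences below, from RefSeq on GRCm38.p6, are shown because the members differ in a few bases only, which bears on how reads were assigned. Capitals mark the seed, bases 2 to 8 counted from the 5' end.
miR-192-5p: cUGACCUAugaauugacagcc
miR-215-5p: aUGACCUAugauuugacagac
miR-194-5p: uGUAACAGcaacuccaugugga
miR-192-3p: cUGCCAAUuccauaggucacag
miR-194-2-3p: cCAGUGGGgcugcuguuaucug
miR-194-1-3p: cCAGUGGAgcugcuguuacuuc

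miR-192-5p and miR-215-5p were identical at 18 of 21 bases. Going from miR-192-5p to miR-215-5p, counted from the 5' end, the differences were C1A, A12U and C20A, all outside the seed. No other of the 322 rows that matched a RefSeq mature sequence had that seed, and none shared the seed of miR-194-5p, miR-192-3p or miR-194-2-3p. The 3' arms of the miR-194 copies, going from miR-194-1-3p to miR-194-2-3p, differed by A8G, C19U, U20C and C22G. One of these, A8G, lies in the seed.

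The family is encoded at 2 places, each holding a miR-194 hairpin ahead of its partner on the + strand. Mir194-2 (chr19:6264643-6264728) and Mir192 (chr19:6264844-6264932) lie 115 bases apart and overlap no other gene of the GENCODE annotation. Mir194-1 (chr1:185313319-185313385) and Mir215 (chr1:185313581-185313692) lie 195 bases apart. Both of these sit inside the antisense RNA gene 2010103J01Rik, Mir215 in an exon (chr1:185313530-185313803) and Mir194-1 in an intron, and run antisense to an intron of Iars2, which encodes the mitochondrial isoleucyl-tRNA synthetase. Both miR-194 hairpins yield the same miR-194-5p, so its value cannot be split between the 2 places. The hairpins on chromosome 19 are printed below because both arms of each have a row, although that of miR-194-5p is shared with Mir194-1. The 5' and 3' arms are in capitals.
Mir192: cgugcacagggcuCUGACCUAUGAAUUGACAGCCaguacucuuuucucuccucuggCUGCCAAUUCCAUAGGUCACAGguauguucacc
Mir194-2: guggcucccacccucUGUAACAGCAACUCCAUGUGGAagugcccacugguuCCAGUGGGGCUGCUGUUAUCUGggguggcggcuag

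Values are CPM, read counts that the authors scaled to a fixed library total. The steps between values gave depths of 5.45 to 22.2 M reads (M, mega), with a median of 13.2 M. miR-122-5p, the best-known hepatocyte miRNA, ranked between 9 and 12 in each library, and the summed hepatocyte-enriched markers held 280529 to 351198 CPM, with 11 of 12 measured. CO replicate 3, the shallowest library, stood apart: it had the lowest value of the 12 in 158 rows and the highest in 31, 189 rows in all, whereas the library with the next most, OO replicate 3, had 130. Results that rest on CO replicate 3 are therefore given with and without it, and so are those that rest on OC replicate 1.

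miR-192-5p, the main arm of Mir192, had the highest value of any row in each of the 12 libraries. It stood at 249950, 253042 and 247539 CPM in OO, at 255728, 239517 and 295048 in CO, at 222649, 241090 and 244399 in OC, and at 230695, 239389 and 237144 in CC. The group means ran from 263431 ± 28555 CPM in CO through 250177 ± 2758 in OO and 236046 ± 11720 in OC to 235743 ± 4514 in CC (SD, n = 3 each). CO and OO overlapped, as did OC and CC, while each obesogenic-fed group lay above the control-fed group of the same maternal diet. The lowest CO value, 239517 CPM, was only just above the highest CC value, 239389 CPM. In either direction, 22.0% of all rows separated CO from CC and 15.5% separated OO from OC. Part of the height of CO came from 1 library: without CO replicate 3, the CO mean was 247623 CPM.

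miR-194-5p, the main arm of both miR-194 hairpins, ranked between 22 and 29. Its values were 7056, 7377 and 7304 CPM in OO, 6503, 6989 and 3704 in CO, 7032, 6815 and 6917 in OC, and 7440, 6672 and 7243 in CC. Of the 12, 11 lay between 6503 and 7440 CPM, and CO replicate 3 lay far below them. The OO values lay above those of OC and of CO without overlap, and within the range of CC. Such a separation, in either direction, was found in 15.5% of all rows for OO against OC and in 19.2% for OO against CO.

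miR-192-3p, the passenger arm of Mir192, had 90.7, 94.8 and 96.7 CPM in OO, 94.8, 96.7 and 59.8 in CO, 96.1, 86.6 and 91.6 in OC, and 87.7, 91.4 and 96.4 in CC. Again 11 libraries lay close together, from 86.6 to 96.7 CPM, with CO replicate 3 below. miR-194-2-3p, the passenger arm of Mir194-2 and the only member that reports on that hairpin alone, had 49.3, 48.4 and 49.4 CPM in OO, 43.6, 59.8 and 61.3 in CO, 62.6, 47.9 and 49.0 in OC, and 55.9, 55.8 and 62.6 in CC. The OO values were the most alike, and they lay below the CC values without overlap, where 22.0% of all rows separated OO from CC in either direction.

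miR-215-5p, the seed partner of miR-192-5p, was the uneven member. It had 54.9, 175.6 and 76.9 CPM in OO, 126.6, 116.9 and 54.7 in CO, 421.7, 64.1 and 52.8 in OC, and 100.2, 51.4 and 85.3 in CC. All 4 groups overlapped, and OC replicate 1 was the highest of the 12. miR-215-5p amounted to between 0.0185% and 0.189% of miR-192-5p in the same library. How reads that could match both were assigned is not given in the sources used here, so whether a part of the miR-215-5p value came from miR-192-5p reads was not tested. The fewest reads behind a member's value, estimated from the steps, were 298, for miR-215-5p in CO replicate 3.

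**Figure D1:**
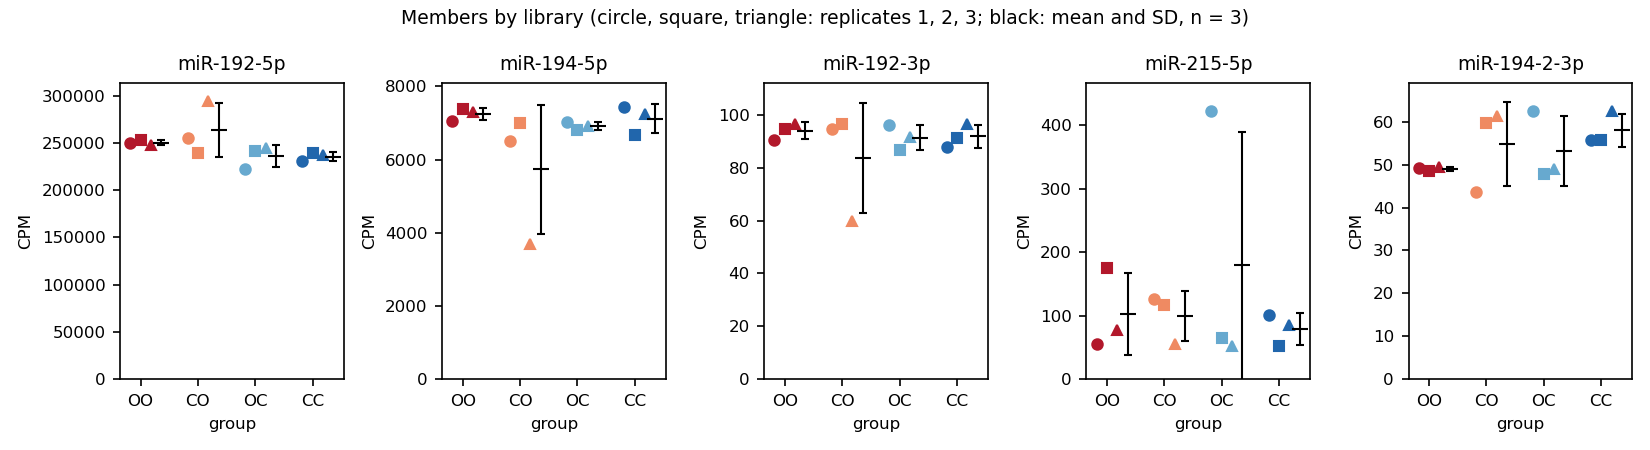
CPM of the 5 members by group, with the axis starting at 0. Circle, square and triangle are replicates 1, 2 and 3, and the black mark is the mean with its SD (n = 3); the lower arm of the OC error bar of miR-215-5p runs below the axis. CO replicate 3 lies above the rest for miR-192-5p (295048 CPM) and below it for miR-194-5p (3704 CPM) and miR-192-3p (59.8 CPM), and OC replicate 1 stands out for miR-215-5p (421.7 CPM).

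The members differed widely in how even they were. Over the 12 libraries the coefficient of variation was 7.28% for miR-192-5p, 11.3% for miR-192-3p, 12.4% for miR-194-2-3p, 14.8% for miR-194-5p and 90.0% for miR-215-5p, against a median of 19.6% over all rows. miR-215-5p was the 8th most variable row of 386, and the 4th of the 102 rows with a mean of 40 to 400 CPM, whose median was 16.6%. Without CO replicate 3, miR-192-3p (3.93%), miR-192-5p (4.03%) and miR-194-5p (4.21%) were the 3 least variable rows of the whole table, where the median was 16.7%. For miR-215-5p it was 88.6% without that library and 45.3% without OC replicate 1, where it ranked 27th of 386 and the median was 19.5%.

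Together the members made up 25.5, 25.8 and 25.2% of the summed values in OO, 26.0, 24.4 and 29.6% in CO, 22.8, 24.5 and 24.9% in OC, and 23.6, 24.4 and 24.2% in CC. The share averaged 26.1 ± 1.80% when the son ate the obesogenic diet and 24.1 ± 0.752% when the son ate control chow (SD, n = 6 each). The difference was 2.01 percentage points, or 1.31 leaving out CO replicate 3. miR-192-5p alone held between 96.7 and 98.7% of the family in each library. The other 4 members summed to 6731 ± 1431 CPM on the obesogenic and 7296 ± 341 CPM on the control diet of the son, and without CO replicate 3 the obesogenic-fed sum was 7301 ± 352 CPM (n = 5). A share of this size pulls every other row's CPM with it, so the ratios below, taken within a library, are given as well.

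The sons' own diet was tested first, as the mean of OO and CO against the mean of OC and CC, on log2(CPM + 1) with limma and Benjamini-Hochberg adjustment over all rows. None of the 5 members passed an adjusted p of 0.05, where 0.777% of all rows (3 of 386) did. At an unadjusted p under 0.05 there was 1 member, miR-192-5p, and 57 rows. miR-192-5p averaged 256804 ± 19543 CPM on the obesogenic and 235894 ± 7944 CPM on the control diet (SD, n = 6 each). Its log2 change was 0.12 (SE 0.0543, 95% interval 0.00094 to 0.24, limma adjusted p = 0.328), against a median of -0.02 over all rows. Without CO replicate 3 the log2 change was 0.08 and the obesogenic-fed mean 249155 ± 6214 CPM (n = 5).

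For the other members the 95% interval spanned 0. The log2 change was -0.15 (SE 0.132) for miR-194-5p, -0.10 (SE 0.112) for miR-194-2-3p, -0.06 (SE 0.119) for miR-192-3p and -0.01 (SE 0.494) for miR-215-5p. It was -0.01 for miR-194-5p and 0.05 for miR-192-3p without CO replicate 3. That of miR-194-2-3p moved to -0.02 on leaving out CO replicate 1 and to -0.04 on leaving out OC replicate 1, and that of miR-215-5p was 0.46 without OC replicate 1. The interval of miR-215-5p, from -1.09 to 1.07, left room for changes in either direction that are large beside those of the other members. In no member did the 6 obesogenic-fed libraries lie fully to 1 side of the 6 control-fed ones, as 2.59% of all rows did.

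After control mothers, CO against CC, 0 of 5 members passed, where 0.777% of rows did, and 0 had an unadjusted p under 0.05. The log2 change was 0.15 (SE 0.0768, 95% interval -0.01 to 0.32, limma adjusted p = 0.341) for miR-192-5p and -0.36 (SE 0.187, 95% interval -0.77 to 0.04, limma adjusted p = 0.36) for miR-194-5p. Both rested on CO replicate 3, since they were 0.07 and -0.08 without it. Scaling moved them as well: with TMM factors they were 0.28 for miR-192-5p and -0.24 for miR-194-5p, and with median-of-ratios factors 0.24 and -0.28. The 3 CO values of miR-192-5p all lay above the 3 CC values, and 22.0% of all rows separated these groups in 1 direction or the other.

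After obesogenic mothers, OO against OC, 0 of 5 members passed, where 0.518% of rows did, and 0 had an unadjusted p under 0.05. Here the log2 change was 0.09 (SE 0.0768, 95% interval -0.08 to 0.25, and 0.04 without OC replicate 1) for miR-192-5p and 0.07 (SE 0.187, 95% interval -0.34 to 0.47) for miR-194-5p. miR-192-5p and miR-194-5p were both higher in each OO library than in any OC library, a separation found in 15.5% of all rows in either direction. The 2 comparisons by the sons' diet share no library.

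The difference between these 2 changes, the interaction of both diets, passed for 0 of 5 members and for 0% of all rows. On the log2 scale it was 0.43 for miR-194-5p (SE 0.264, 95% interval -0.15 to 1.01, limma adjusted p = 0.773), and 0.14 without CO replicate 3. For miR-192-5p it was -0.07 (SE 0.109), and 0.01 without that library. miR-215-5p had -0.61 (SE 0.988, 95% interval -2.77 to 1.56), and 0.34 without OC replicate 1. Over all rows the median of this term was 0.13 at the deposited scaling and 0.01 with median-of-ratios factors.

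The mother's diet was tested as the mean of OO and OC against the mean of CO and CC. It passed for 0 of 5 members and for 0% of all rows, and 0 members and 27 rows had an unadjusted p under 0.05. The log2 change was 0.18 (SE 0.132) for miR-194-5p, 0.10 (SE 0.119) for miR-192-3p, -0.03 (SE 0.0543) for miR-192-5p and -0.14 (SE 0.112) for miR-194-2-3p. For miR-215-5p it was 0.26 (SE 0.494), and -0.21 without OC replicate 1. In CPM, miR-194-5p averaged 7084 ± 218 with obesogenic and 6425 ± 1377 with control mothers (SD, n = 6 each), and the control mean was 6969 ± 388 without CO replicate 3 (n = 5). Depth moved with maternal diet, at 10.5 to 22.2 M reads with obesogenic and 5.45 to 15.0 M reads with control mothers, and with log2 depth in the model the log2 change of miR-194-5p was -0.09. Without CO replicate 3, but with no depth term, it was 0.03 for miR-194-5p and -0.02 for miR-192-3p. The part of depth in these values was otherwise not tested.

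Between single groups the mother's diet gave no call either. In OC against CC, 0 of 5 members and 0% of rows passed, with 4 rows at an unadjusted p under 0.05, and no member separated the groups. miR-192-5p stood at 236046 ± 11720 CPM in OC and 235743 ± 4514 CPM in CC. In OO against CO, 0 of 5 members and 0% of rows passed, with 47 rows at an unadjusted p under 0.05. There the log2 change was 0.39 (SE 0.187, 95% interval -0.02 to 0.80, limma adjusted p = 0.371) for miR-194-5p, 0.10 without CO replicate 3, and -0.07 (SE 0.0768) for miR-192-5p, against a median over all rows of 0.13 at the deposited scaling and 0.02 with median-of-ratios factors. With those factors it was 0.26 for miR-194-5p and -0.20 for miR-192-5p. With both diets changed, OO against CC, 0 of 5 members passed, where 0.259% of rows did. In that comparison miR-192-5p lay higher and miR-194-2-3p lower in every OO library than in any CC library, and 22.0% of all rows separated the groups in either direction.

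**Figure D2:**
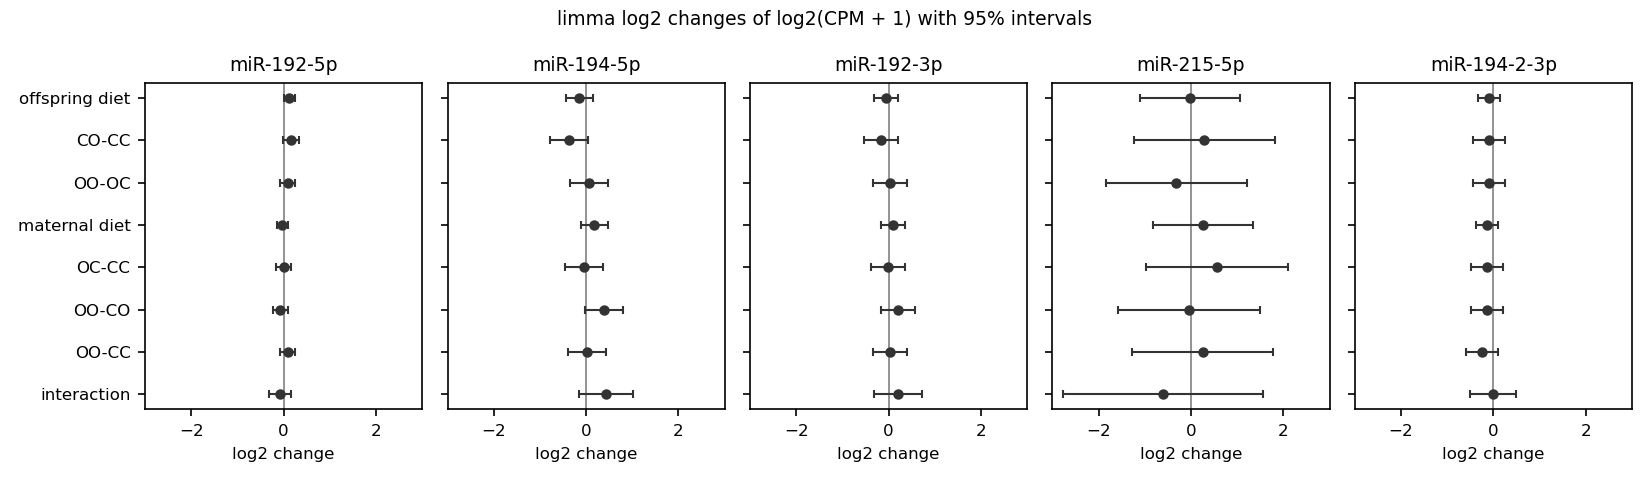
limma log2 change of log2(CPM + 1) for each member in the 8 contrasts, with 95% intervals, on 1 common axis. All intervals span 0 apart from that of miR-192-5p for the sons' diet (0.00094 to 0.24), and those of miR-215-5p are the widest.

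Ratios within a library do not depend on how libraries were scaled. They were tested with an exact permutation test, two-sided, that shuffled 1 diet within the levels of the other. The ratios tested below, each by both diets, made 10 tests, and the 400 permutations of each cannot give a p below 0.005.

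The ratio of miR-192-5p to miR-122-5p set the family against a hepatocyte miRNA. miR-122-5p had 22499, 20303 and 19991 CPM in OO, 20930, 22481 and 28851 in CO, 25383, 22105 and 24475 in OC, and 25255, 25112 and 23582 in CC. The ratio was 11.1, 12.5 and 12.4 in OO, 12.2, 10.7 and 10.2 in CO, 8.77, 10.9 and 9.99 in OC, and 9.13, 9.53 and 10.1 in CC. Each obesogenic-fed group stood above the control-fed group of the same maternal diet, without overlap. Among single rows, 22.0% separated CO from CC and 15.5% OO from OC in either direction, miR-192-5p among them in both. The mean ratio was 11.5 ± 0.971 on the obesogenic and 9.73 ± 0.757 on the control diet of the son (SD, n = 6 each), a log2 difference of 0.24. The exact permutation p was 0.005, the smallest these permutations can give. The Benjamini-Hochberg adjusted value over the 10 tests was 0.05, which is not under the threshold of 0.05. With 10 tests, 1 ratio alone at that smallest p cannot come under the threshold, however large its difference. The adjusted value therefore cannot decide whether this ratio differed. Without CO replicate 3 the log2 difference was 0.27. The mother's diet gave a log2 difference of 0.08 (exact permutation p = 0.24, adjusted p = 0.583).

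The ratio of the arms of Mir192, miR-192-5p over miR-192-3p, was 2757, 2669 and 2559 in OO, 2699, 2477 and 4930 in CO, 2317, 2784 and 2669 in OC, and 2630, 2619 and 2460 in CC. All libraries but CO replicate 3 lay between 2317 and 2784. By the sons' diet the log2 difference was 0.18 (exact permutation p = 0.325, adjusted p = 0.583), and by the mother's diet -0.13 (exact permutation p = 0.67, adjusted p = 0.838). These were 0.03 and 0.02 without CO replicate 3. The groups overlapped throughout.

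The ratio of miR-194-5p, from both hairpins, to miR-194-2-3p, from 1 of them, was 143, 152 and 148 in OO, 149, 117 and 60.4 in CO, 112, 142 and 141 in OC, and 133, 120 and 116 in CC. It averaged 140 ± 14.1 with obesogenic and 116 ± 29.996 with control mothers (SD, n = 6 each), a log2 difference of 0.32 (exact permutation p = 0.11, adjusted p = 0.367). The 6 libraries of each maternal diet overlapped. The OO values lay above those of OC and of CC without overlap, and overlapped those of CO. Among single rows, 15.5% separated OO from OC and 22.0% OO from CC in either direction, and no such share was worked out for ratios. miR-194-5p by itself separated OO from OC, and miR-194-2-3p by itself separated OO from CC. By the sons' diet the log2 difference was -0.05 (exact permutation p = 0.935, adjusted p = 0.935). The log2 difference was 0.13 by the mother's and 0.14 by the sons' diet when CO replicate 3 was left out.

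The ratio of miR-194-5p to miR-192-5p set both main arms against each other. It was 0.0282, 0.0292 and 0.0295 in OO, 0.0254, 0.0292 and 0.0126 in CO, 0.0316, 0.0283 and 0.0283 in OC, and 0.0323, 0.0279 and 0.0305 in CC. All libraries but CO replicate 3 lay between 0.0254 and 0.0323. The mean was 0.0257 ± 0.00660 on the obesogenic and 0.0298 ± 0.00190 on the control diet of the son (SD, n = 6 each), a log2 difference of -0.27 (exact permutation p = 0.11, adjusted p = 0.367). By the mother's diet it was 0.21 (exact permutation p = 0.35, adjusted p = 0.583). Leaving out CO replicate 3, the log2 difference was -0.08 by the sons' and 0.02 by the mother's diet. miR-215-5p over miR-192-5p differed by -0.13 on the log2 scale with the sons' diet (exact permutation p = 0.87, adjusted p = 0.935) and by 0.30 with the mother's (exact permutation p = 0.665, adjusted p = 0.838). Without OC replicate 1 these were 0.37 and -0.20.

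**Figure D3:**
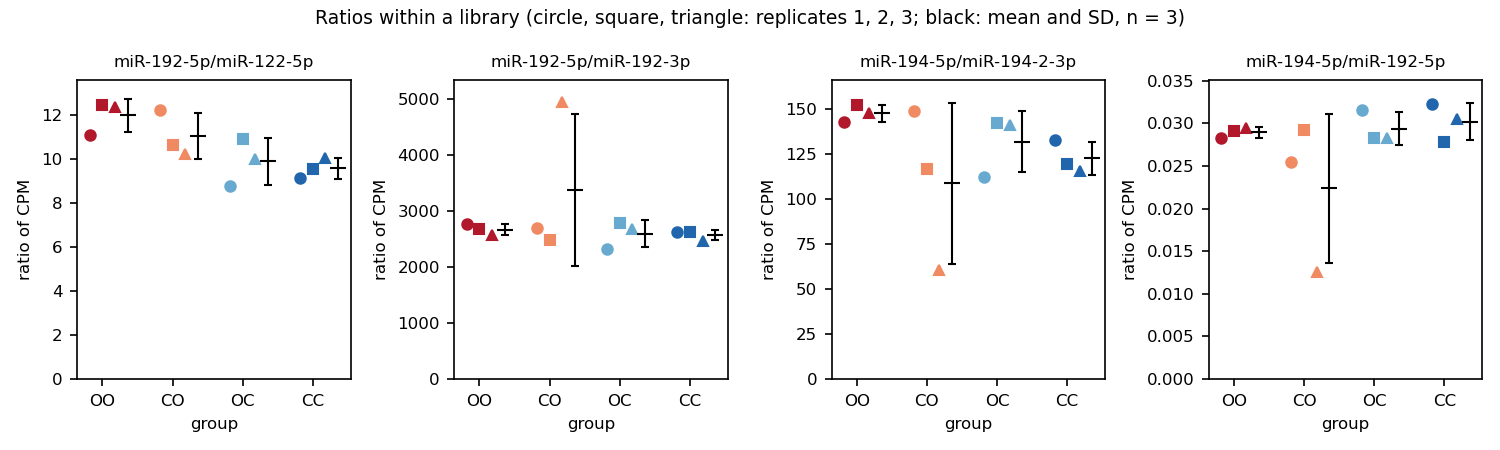
Ratios of CPM within a library by group, with axes that start at 0. Circle, square and triangle are replicates 1, 2 and 3, and the black mark is the mean with its SD (n = 3). miR-192-5p over miR-122-5p is higher in OO than in OC and higher in CO than in CC, while CO replicate 3 lies apart in the other 3 ratios (4930, 60.4 and 0.0126).

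Of the 10 pairs of members, the 3 with the strongest correlation over the 12 libraries rested on CO replicate 3. miR-194-5p and miR-192-3p had a Pearson r of 0.94 (Spearman rho 0.39), and 0.11 without CO replicate 3. miR-192-5p and miR-194-5p had an r of -0.84 (rho -0.36), and -0.23 without it. miR-192-5p and miR-192-3p, cut from the same hairpin, had an r of -0.78 (rho -0.22), and 0.07 without it. miR-192-5p against miR-194-2-3p had an r of -0.14 (rho -0.55), which came to -0.82 when CO replicate 3 was left out and to 0.05 when OC replicate 1 was. The r of the other 6 pairs lay between -0.44 and 0.39 over the 12 libraries, and between -0.41 and 0.48 without CO replicate 3. These are descriptions over libraries that also share depth and scaling, and no p is given.

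In CO replicate 3 the 2 main arms lay on opposite sides of the other libraries. Against the mean of the other 11 on the log2 scale, miR-192-5p stood 0.29 higher there and miR-194-2-3p 0.21 higher, while miR-194-5p stood at -0.92, miR-215-5p at -0.81 and miR-192-3p at -0.63, against a median of -0.22 over all rows. The rows most like miR-194-5p had that same low library. By Pearson r over 12 libraries they were miR-497-5p (0.98), miR-29a-3p (0.97), miR-29c-3p (0.96), miR-193a-3p (0.96) and miR-29a-5p (0.96). Without CO replicates 3 and 1, the libraries farthest from the median of miR-194-5p, the r lay between 0.28 for miR-193a-3p and 0.61 for miR-497-5p. miR-497 shares its seed with miR-15 and miR-16, and miR-29 is known for lowering collagen mRNAs.

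The rows most like miR-192-5p were miR-181a-2-3p (r = 0.77), miR-7a-5p (0.74), miR-148a-5p (0.73), miR-1839-5p (0.67) and let-7f-5p (0.65). Without CO replicate 3 and OC replicate 1 the r was 0.60 for let-7f-5p, 0.35 for miR-1839-5p, 0.19 for miR-181a-2-3p, 0.14 for miR-7a-5p and -0.33 for miR-148a-5p. Only let-7f-5p, of the 5, kept an r above 0.5.

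miR-215-5p was high in OC replicate 1, and there miR-375-3p, known from pancreatic islets and secretory epithelium, was higher still. On the log2 scale OC replicate 1 stood 4.95 above the mean of the other 11 for miR-375-3p and 2.38 above it for miR-215-5p, the 2 rows with the largest such excess, followed by miR-338-5p (1.72). miR-375-3p had 39.98, 51.2 and 16.6 CPM in OO, 35.8, 1061 and 266 in CO, 1734, 21.9 and 27.5 in OC, and 17.7, 197 and 18.02 in CC. CO replicate 2, with the second-highest miR-375-3p, had 116.9 CPM of miR-215-5p, within the range of the other libraries. The 2 miRNAs had an r of 0.48 over 12 libraries and 0.01 without OC replicate 1. The summed level of the 12 intestinal, biliary and other epithelial markers, all measured, was 3703 to 4391 CPM in OO, 3448 to 5440 in CO, 4403 to 7382 in OC and 4360 to 5062 in CC. That sum includes miR-375-3p; the other 11 markers summed to 3663 to 4340 CPM in OO, 3266 to 4379 in CO, 4381 to 5866 in OC and 4342 to 4865 in CC, and OC replicate 3 (5866 CPM) then lay above OC replicate 1 (5648 CPM). Of the 5 pancreas markers 2 were measured, miR-375-3p and miR-7a-5p; miR-216a-5p, miR-216b-5p and miR-217-5p had no row and were not analysed here. The part of other tissue or cell types in the miR-215-5p value was not tested.

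The rows whose pattern was most like that of miR-215-5p, looked up after its values were seen, were miR-145b (r = 0.79), miR-350-3p (0.78) and miR-193b-3p (0.76). miR-145a-5p (0.74) was added by name, not by its place in that order. Without OC replicate 1 the r was 0.70 for miR-145b, 0.69 for miR-350-3p, 0.49 for miR-145a-5p and 0.40 for miR-193b-3p. miR-145a-5p, known from smooth muscle and other mesenchymal cells, reached 355 CPM in OC replicate 1, against a median of 191.6 CPM over the 12. The 2 likest rows were far lower in level, with medians of 5.62 CPM for miR-145b and 12.7 CPM for miR-350-3p.

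**Figure D4:**
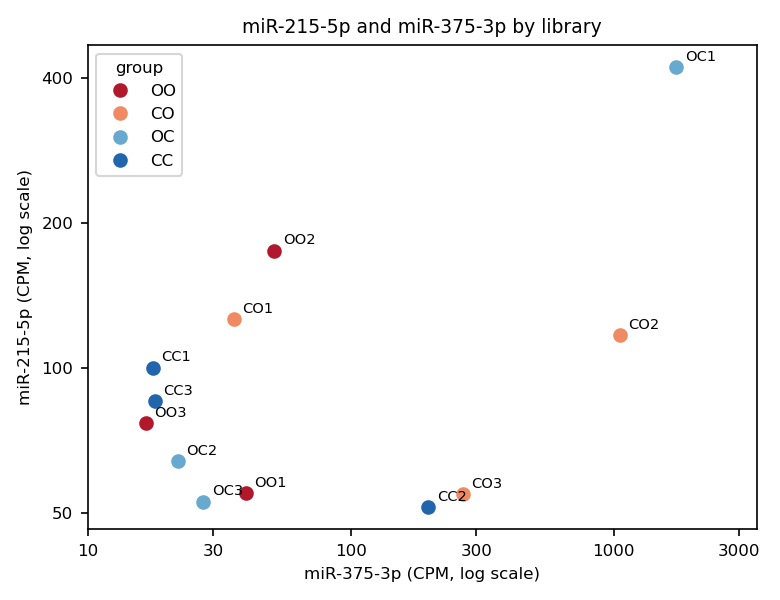
miR-215-5p against miR-375-3p in each library, both in CPM on log axes, coloured by group and labelled with group and replicate. OC replicate 1 is at the top right (1734 CPM of miR-375-3p and 421.7 CPM of miR-215-5p), and CO replicate 2 has a high miR-375-3p (1061 CPM) with 116.9 CPM of miR-215-5p.

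Other miRNAs known to be linked to p53 in human cells, among them miR-34a-5p, miR-143-3p and miR-107-3p, gave no call. Of the 14 listed, 10 were measured, and 0 rose or fell past limma's adjusted test in any of the 8 contrasts. By the sons' diet 6 of the 10 had a log2 change above 0, with a median of 0.05, against -0.02 over all rows. By the mother's diet 6 of 10 did, with a median of 0.14 against 0.08.

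Of the 15 miRNAs listed as linked to TGF-beta and fibrosis, among them miR-21a-5p, miR-29a-3p and miR-214-3p, 12 were measured and 0 passed in any contrast. By the sons' diet 9 of the 12 had a log2 change above 0, with a median of 0.13 against -0.02 over all rows, and by the mother's diet 6 of the 12, with a median of 0.04 against 0.08. Both lists were chosen with results of these samples known, and their medians carry no test.

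Among the marker lists, the epithelial one was the only list with members that passed. Like the others it was chosen with results of these samples known, so its share of passing members beside that of all rows is no test of the list. By the sons' diet miR-31-5p fell by 0.43 (SE 0.0692) and miR-182-5p fell by 0.98 (SE 0.153) on the log2 scale (limma adjusted p = 0.00743 for each), 2 of 12 measured, where 0.777% of all rows passed. miR-31-5p fell by 0.51 in CO against CC (limma adjusted p = 0.0351, passing in 6 of 22 other settings), 1 of 12 where 0.777% of rows passed. miR-182-5p fell by 1.15 in OO against OC (limma adjusted p = 0.0435, passing in 10 of 22), 1 of 12 where 0.518% of rows passed. By the sons' diet 6 of the 12 epithelial markers had a log2 change above 0. The median of the 12 was 0.06, against -0.02 over all rows. Their summed level was lower on the obesogenic diet of the son, at 4050 ± 757 CPM against 5300 ± 1166 CPM (SD, n = 6 each). Without miR-375-3p the sum averaged 3925 CPM in OO against 5298 in OC, and 3686 in CO against 4630 in CC. These sums were not tested. The family members, which are abundant in epithelium too, had log2 changes by the sons' diet between -0.15 and 0.12. The hepatocyte-enriched, pancreas, erythroid, leukocyte and mesenchymal lists had 0 passing members in each of the 8 contrasts.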

How the data were processed

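Small RNA libraries were made from total liver RNA with the TruSeq small RNA kit, per the labels' protocols. The submitters' processing notes name Bowtie 1.2.3. The authors deposited 1 table of CPM for 386 mature miRNAs, 12 columns, none at 0. The genome build, the miRNA reference and the assignment of reads with several matches were not given in the sources used here. Columns were assigned by the column number in each sample description, and replicate numbers follow accession order. Column values were whole multiples of 1 step (tolerance 0.001 reads), which gave estimated depths. Columns summed to 0.866 to 1.17% above the CPM total, so depth is approximate.

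log2(CPM + 1) of all rows was fitted with limma 3.58.1 (R 4.3.3), with a mean-variance trend, 4 group means, 8 contrasts and no filter, two-sided, with Benjamini-Hochberg adjustment per contrast and a threshold of 0.05. A log2 change on this scale understates changes of low rows. Ratios were tested by exact permutation within the other diet. Scripts were tested on simulated data. Any 2 libraries differed in at least 379 rows, so none was a duplicate. Values and plots were made with numpy 2.4.6, pandas 2.3.3 and matplotlib 3.10.9 in Python 3.11.15.

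The members and the 8 lists were chosen with earlier results of these data known. Named miRNAs were every family row, miR-122-5p, list members that passed, and the 5 rows most correlated with miR-192-5p and with miR-194-5p. miR-375-3p, miR-145a-5p and the rows most like miR-215-5p were named after their values were seen. Sequences and hairpin positions are from RefSeq, on GRCm38.p6; positions were the same in the GENCODE annotation. Alternatives were other pseudocounts, a filter at a mean of 10 CPM, TMM and median-of-ratios factors, totals without miR-192-5p, quality weights, depth as a covariate, only the groups compared, and each library left out. The variability and correlations without OC replicate 1, the epithelial sum without miR-375-3p and the sum of the lesser members without CO replicate 3 were added after seeing the data.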

Additional observations from a re-analysis of the deposited data

Results flagged for a closer look

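Of 44 groups of 6 libraries tested for a lone outlying library, 17 had one. Chance gives about 1 in 20 for independent groups. These groups share libraries, and the ratios and the family share are built from the members, so the 17 cannot be set against that rate. A library counted as outlying when its gap to the nearest other, divided by the range of the group, was above 0.625. The 6 libraries were those of 1 diet level of the sons or of the mothers, so 1 library can appear under both.

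CO replicate 3 gave most of them. It held 295048 CPM of miR-192-5p in obesogenic-fed sons, with the nearest library at 255728. For miR-194-5p it had 3704 CPM, both among obesogenic-fed sons and among sons of control mothers, with the nearest at 6503. For miR-192-3p it had 59.8 CPM in both of those groups, with the nearest at 90.7 among obesogenic-fed sons and 87.7 among sons of control mothers. Its ratio of miR-192-5p to miR-192-3p was 4930 in both, with the nearest at 2757 and 2699. Its ratio of miR-194-5p to miR-192-5p was 0.0126 in both, with the nearest at 0.0254. The family took 29.6% of its summed values, with the nearest obesogenic-fed library at 26.0%. CO replicate 3 was also the shallowest library, at 5.45 M reads, and the part of depth was not tested.

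OC replicate 1 had 421.7 CPM of miR-215-5p, with the nearest at 100.2 among control-fed sons and 175.6 among sons of obesogenic mothers. The ratio of miR-215-5p to miR-192-5p there was 0.00189, with the nearest at 0.000434 and 0.000694. Among sons of obesogenic mothers it also had the highest miR-194-2-3p, 62.6 CPM with the nearest at 49.4, and the lowest ratio of miR-194-5p to miR-194-2-3p, 112 with the nearest at 141. CO replicate 1 had the lowest miR-194-2-3p among sons of control mothers, 43.6 CPM with the nearest at 55.8.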

How the results depend on the processing

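The count of members that passed was 0 in each of 173 alternatives over the 8 contrasts, and the lowest adjusted p of a member in any of them was 0.0976, for miR-194-5p in CO against CC with log2 depth as a covariate. Of 405 alternatives for the log2 changes given, 27 had the opposite sign, and of 130 for the ratios 6 did, all of values that had not passed. The cause was not tested. For miR-215-5p and the sons' diet the log2 change was 0.040 with TMM factors, 0.0084 with median-of-ratios factors, 0.028 when scaled without miR-192-5p, 0.45 with quality weights, 0.20 with the depth covariate and 0.011 with limma-voom on reads recovered from the steps, an alternative chosen after seeing the data. With quality weights it was 0.024 for miR-192-3p by the sons' diet, and by the mother's diet 0.0046 for miR-192-5p and -0.0039 for miR-192-3p. With the depth covariate the mother's diet gave 0.049 for miR-192-5p, -0.089 for miR-194-5p, -0.63 for miR-215-5p and -0.086 for miR-192-3p, and the interaction was 0.035 for miR-215-5p. Leaving out 1 library at a time, the log2 change by the sons' diet ranged from -0.28 to 0.46 for miR-215-5p and from -0.12 to 0.051 for miR-192-3p, and by the mother's diet from -0.21 to 0.53 for miR-215-5p, from -0.016 to 0.15 for miR-192-3p and from -0.067 to 0.0082 for miR-192-5p. That of miR-192-5p ranged from -0.13 to 0.016 in OO against CO and from -0.14 to 0.015 in the interaction, where that of miR-215-5p ranged from -1.15 to 0.34. The log2 difference of miR-192-5p over miR-192-3p by the mother's diet ranged from -0.22 to 0.025, that of miR-194-5p over miR-194-2-3p by the sons' diet from -0.19 to 0.14, and that of miR-215-5p over miR-192-5p from -0.42 to 0.37 by the sons' and from -0.20 to 0.58 by the mother's diet. That of miR-192-5p over miR-122-5p by the sons' diet ranged from 0.20 to 0.28, with adjusted exact permutation p from 0.05 to 0.15. The family share differed by the mother's diet by -0.92 to 0.29 percentage points, and by the sons' diet by 3.64 points when taken as a percentage of the other rows. A planned edgeR test on reads recovered from the steps was not run. No paired analysis was possible because the labels give no replicate numbers shared between groups. With 3 libraries a group, the interval of miR-215-5p limits what could be seen.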
